A study of Mus musculus with 12 samples.

Results

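The 10 genes described here encode the chaperones of the cytosol and nucleus that heat shock is best known for, together with the small heat shock proteins of muscle. They were chosen by name, by gene family and by cell compartment, from 23184 gene symbols in the table. The stress-inducible HSP70 genes are Hspa1a and Hspa1b, and the constitutive one is Hspa8. Hsp90aa1 and Hsp90ab1 encode the inducible and the constitutive cytosolic HSP90. Hspb1, Hspb6, Hspb8 and Cryab encode small heat shock proteins, and Dnajb1 encodes the J-domain partner of HSP70. All 10 had a mean of at least 1 TPM (the share of all transcripts that a gene takes, corrected for transcript length) and entered the tests.

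The 12 libraries came from HL-1, an atrial tumour line of mouse that is labelled as cardiac muscle, and fall into 3 groups of 4. The libraries labelled RE came from Wdr62 knockdown cells that also received, in the pCDH vector, wild-type WDR62 with a flag tag. KD cells carried a virus with a CRISPR guide against Wdr62, which encodes a scaffold protein of the centrosome and mitotic spindle. CON cells, labelled with the genotype WT, carried the lentiCRISPRv2 and pCDH vectors with no such guide named. The treatment labels change from library to library, the number after Cas in KD and after WDR in RE going up by 1 each time, whereas the genotype labels name WDR62 in all 8; the groups follow the titles, and what these treatment labels mean is not known. RE cells thus carry every change of the KD cells, and the labels name pCDH for RE and CON but not for KD. All groups were grown in DMEM with 10% foetal bovine serum and antibiotics, at the usual culture temperature, and the labels name no heat shock. Whether the KD cells are 1 clone or a pool, and whether the libraries of a group came from separate cultures, is not given in the labels, so each p-value measures the spread between libraries that may be technical repeats.

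HSP70 binds exposed hydrophobic stretches of unfolded proteins in a cycle driven by ATP; J-domain proteins such as Dnajb1 deliver the client and stimulate hydrolysis, and HSP90 takes over clients that are close to their final fold. Small heat shock proteins hold unfolding proteins in a state from which HSP70 can recover them, need no ATP, and in heart muscle associate with the sarcomere and the desmin network. In unstressed cells heat shock factor 1 is held inactive by the chaperones themselves, and when unfolded proteins occupy these it binds heat shock elements, inverted repeats of a short GAA unit, in front of the inducible genes.

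Promoters are shown for Hspa1a and Hspa1b, the pair on which the results turn, and for Hspb1 and Hspb6 as small heat shock protein genes with the same element. The sequences are from RefSeq (build GRCm38.p6), which gave 8 promoters for 6 of the 10 genes, each from 250 bases before to 50 bases after a transcription start. Each line runs 5′ to 3′ on the gene's own strand from 140 to 61 bases before the start. Capitals mark the element searched, GAANNTTC or TTCNNGAA, in which 2 GAA units lie in opposite directions. These are different arrangements, each reading the same on both strands, and all matches shown are GAANNTTC.

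Hspa1a (chr17:34972217-34972296, minus strand): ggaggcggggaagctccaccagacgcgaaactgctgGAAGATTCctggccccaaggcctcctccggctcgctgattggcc
Hspa1b (chr17:34959299-34959378, minus strand): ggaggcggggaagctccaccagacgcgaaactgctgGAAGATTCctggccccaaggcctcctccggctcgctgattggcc
Hspb1 (chr5:135887779-135887858, plus strand): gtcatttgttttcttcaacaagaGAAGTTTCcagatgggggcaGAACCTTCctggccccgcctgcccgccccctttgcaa
Hspb6 (chr7:30553161-30553240, plus strand): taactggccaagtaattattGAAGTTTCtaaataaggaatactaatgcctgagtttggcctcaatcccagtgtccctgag

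The Hspa1a and Hspa1b stretches were identical over all 80 bases, and the 250 bases before the 2 starts were identical at 247 positions (98.8%). Both hold GAAGATTC beginning 104 bases before the start. Hspb1 has the element at 117 and at 97 bases before its start. Hspb6 has it at 120 bases before the second of its 2 annotated starts and not in the window of the first. The fifth gene with a match was Hspb8, 2 bases after its start, and neither Dnajb1 promoter held one. The element, in either arrangement, was thus found in 5 of 6 genes and in 5 of 8 promoters, against 15.1% of 32851 mouse promoters of the same length. A match to these letters is a description of the sequence and not of binding.

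Sequence shared between genes limits what a short-read table can separate. Hspa1a (chr17:34969190-34972156, minus strand, GRCm38) and Hspa1b (chr17:34956436-34959238, minus strand) lie 9951 bases apart. Of the 50-base windows of the longest Hspa1a transcript, 58.8% also occur in Hspa1b, and 62.3% of the Hspa1b windows occur in Hspa1a. The sources used here do not say how reads were split between this pair, so their separate levels are uncertain and their sum is used beside them. Annotated transcripts of other genes also held 58.5% of the Hsp90aa1 windows, 52.7% of the Hspa8 windows and 51.6% of the Hspb1 windows, the last in the pseudogene Hsp25-ps1. Cryab (chr9:50751325-50756636, plus strand) overlaps the small heat shock protein gene Hspb2 on the other strand, and 19.0% of its windows occur in Hspb2. Hspa1a overlaps Gm20481 on the other strand, where 16.2% of the Hspa1a windows also occur, and 66.3% of them occur in any other gene. Hspb6 (chr7:30552178-30555443, plus strand) overlaps Proser3 and Lin37 on the other strand and Gm38670 on the same strand, and lies 271758 bases from Wdr62. Whether strand was used in counting is not given, so reads of these overlapping genes cannot be told apart. For Hsp90ab1, Hspb8 and Dnajb1 the shared windows were 4.49%, 0% and 0.441%.

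Wdr62 was listed at 1.47, 0.772, 0.827 and 1.99 TPM in the RE libraries, at 1.40, 0.944, 1.37 and 0.881 TPM in KD, and at 7.46, 6.61, 6.50 and 3.38 TPM in CON. The KD libraries therefore lie below every CON library, and the RE libraries lie as low as KD. The table does not show re-expression, and the sources used here do not say whether the virus transcript can be counted in this row. Every direction given below for RE is a direction for libraries labelled RE. Of 14 heart muscle markers, 5 had a mean of at least 1 TPM (Tnnt2, Nkx2-5, Gata4, Myl4 and Mef2c), while Myl7, Sln, Actc1 and Actn2 were listed at 0 in every library and Nppa did not pass 0.443 TPM. The summed heart list ranged over 41.0 to 66.5 TPM in RE, 40.1 to 48.8 TPM in KD and 30.1 to 48.0 TPM in CON. The data thus go against the cardiac label for several of its defining genes, and the cells are called HL-1 here by name only.

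Markers of other cell types were present. The summed 7 fibroblast markers ranged over 1560 to 2520 TPM in RE, 2950 to 4250 TPM in KD and 2750 to 4270 TPM in CON, with 6 of 7 at 1 TPM or more and Lum listed at 0. Col3a1 carried most of that sum, at 1190 to 2010 TPM in RE, 2250 to 3460 TPM in KD and 2150 to 3450 TPM in CON. Other members of the list differed between KD and CON without overlap: Dcn was 2.67 to 4.11 TPM in RE, 4.10 to 6.18 TPM in KD and 23.6 to 81.4 TPM in CON, and Col1a1 was 21.0 to 33.5 TPM in RE, 41.8 to 64.4 TPM in KD and 78.3 to 108 TPM in CON. The 5 skeletal muscle markers summed to 3.98 to 11.1 TPM in RE, 4.48 to 6.19 TPM in KD and 13 to 26.8 TPM in CON. The 4 smooth muscle markers summed to 277 to 1480 TPM in RE, 699 to 1120 TPM in KD and 493 to 1090 TPM in CON. The 3 leukocyte markers summed to 6.01 to 13.2 TPM in RE, 6.60 to 8.80 TPM in KD and 4.31 to 6.97 TPM in CON, with Adgre1 listed at 0 throughout and Ptprc at or below 0.0434 TPM. The 4 endothelial markers did not pass 0.746 TPM in sum. Their part in the results below was not tested, and in bulk RNA fewer cells of a type and less RNA per cell cannot be told apart.

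RE 1, RE 3 and CON 4 stood apart in long transcripts. Over 2268 genes whose transcripts reach 5193 bases or more, each library's median deviation (log2) was -0.72, -0.12, -0.99 and -0.13 in the RE libraries, 0.56, 0.54, -0.21 and 0.06 in KD, and 0.70, 0.68, 0.46 and -0.82 in CON. Values without these libraries are given where leaving them out changes a call among the 10 genes. The longest annotated transcripts of the 10 genes run from 930 bases (Hspb1) to 3281 bases (Hsp90aa1). Between 14060 and 14733 genes were above 0 in a library, and the smallest Spearman correlation between libraries was 0.939. The sequencing depth is unknown, because TPM adds up to the same total in each library.

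As a group the 10 genes made up 0.335% to 0.459% of all TPM in RE, 0.389% to 0.416% in KD and 0.362% to 0.459% in CON. Hsp90ab1 stood far above the rest in each group, with a mean of 2379 ± 464 TPM in RE, 2235 ± 79 TPM in KD and 2822 ± 636 TPM in CON (SD, n = 4 each), which ranked 43, 39 and 24 among all genes of those groups. Hspa8 and Cryab followed in all 3 groups with overlapping ranges, then Hsp90aa1 and Hspb1, whose ranges also overlapped. Hspb8 and Hspb6 could not be ordered in any group. Dnajb1 and Hspa1a came last, in that order, in each group, with ranges that did not overlap each other. Hspa1b came just before Dnajb1 in RE and CON and before Hspb6 in KD.

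**Figure D1:**
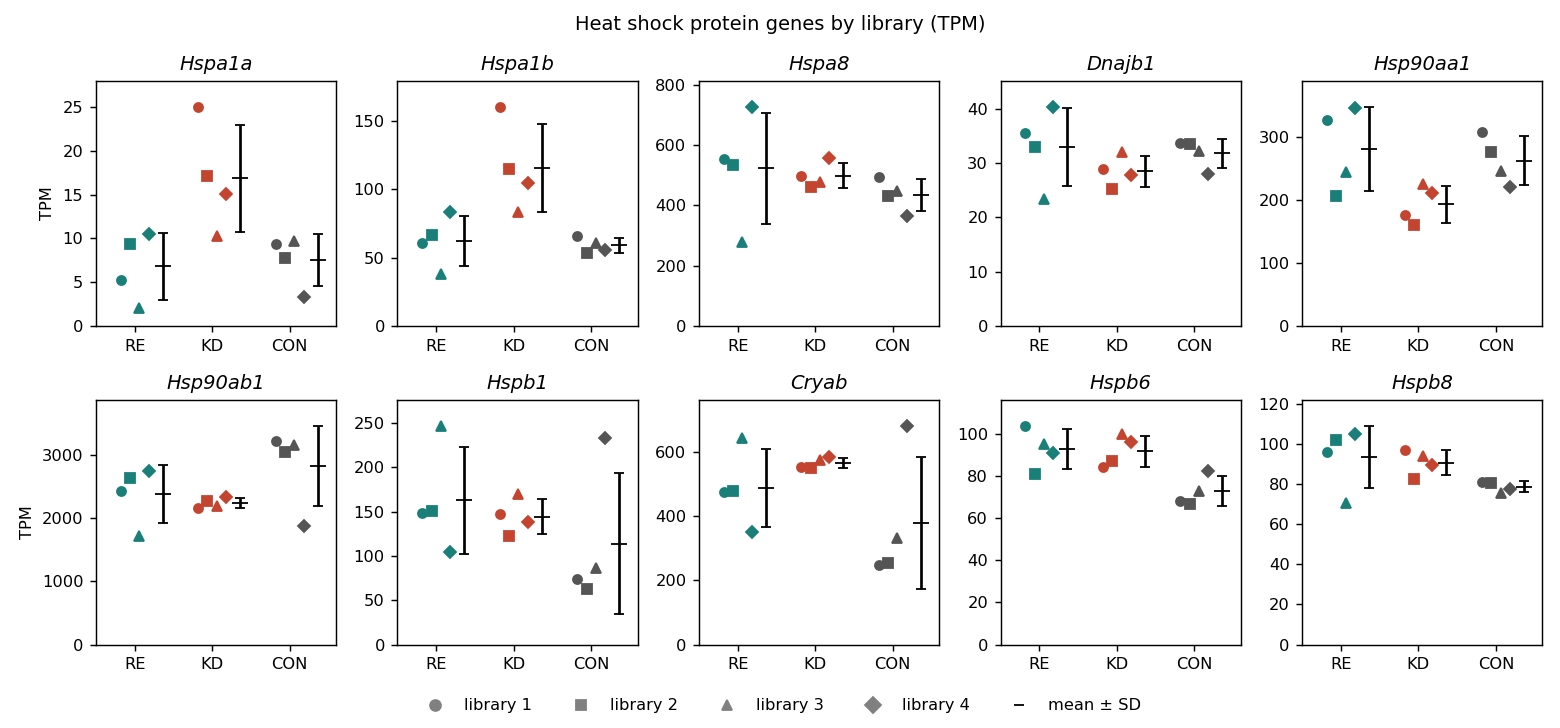
TPM of the 10 genes in each library, with 1 panel per gene and the groups RE, KD and CON from left to right; marker shapes give the library number and bars the mean ± SD of 4 libraries. All 4 KD libraries lie above all CON libraries for Hspa1a, Hspa1b, Hspb6 and Hspb8, and CON 4 lies apart from the other CON libraries for Hspb1, Cryab and Hsp90ab1.

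Among the inducible HSP70 genes Hspa1b was higher in KD than in CON. Hspa1b had 60.6, 66.5, 38.4 and 83.2 TPM in RE, 160.1, 114.9, 83.3 and 104.8 TPM in KD, and 66.0, 53.8, 60.9 and 55.7 TPM in CON. Every KD library was above every CON library and above every RE library, although KD 3 (83.33 TPM) and RE 4 (83.15 TPM) all but met. Hspa1b rose in KD against CON by 0.92 ± 0.24 on the log2(TPM + 1) scale (SE; 95% interval 0.41 to 1.44; 1.90-fold; limma, adjusted p = 0.0265). It was the only 1 of the 10 genes to change in that comparison, in which 10.2% of 11774 tested genes changed and 6.60% rose. The share of the 10 is thus at the background share. The call was lost without KD 1 (adjusted p = 0.0914), without KD 2 (adjusted p = 0.0747), without KD 4 (adjusted p = 0.0594), without CON 2 (adjusted p = 0.0776) and without CON 3 (adjusted p = 0.0630), while the difference stayed between 0.76 and 1.07. Under the settings other than leaving out 1 library it held, with limma adjusted p from 0.00461 (length correction) to 0.0363 (replicate number as a block).

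The Hspa1b difference in RE against KD was -0.90 ± 0.24 (SE; 0.536-fold; 95% interval -1.42 to -0.38), which did not pass in limma (adjusted p = 0.0832). In that comparison 1.04% of genes changed. The groups did not overlap, with RE lower, as for 10.8% of all genes, and Hspa1b was the only 1 of the 10 in that class. The same difference passed without CON 4 (adjusted p = 0.0361) and without KD 3 (adjusted p = 0.0443); it was -0.59 without RE 1, RE 3 and CON 4 (adjusted p = 0.204). Since the median of all genes in RE against KD was -0.29, the Hspa1b difference relative to that median was -0.61. Both comparisons use the same KD libraries, so their opposite signs are not independent of each other. RE against CON gave 0.02 ± 0.24 (SE; 95% interval -0.49 to 0.54; limma, adjusted p = 0.942).

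Hspa1a was the lowest of the 10 genes. It had 5.22, 9.38, 2.11 and 10.5 TPM in RE, 25.0, 17.1, 10.3 and 15.1 TPM in KD, and 9.38, 7.72, 9.70 and 3.33 TPM in CON. The KD libraries lay above all CON libraries, whereas RE 4 (10.47 TPM) lay above KD 3 (10.31 TPM). The estimates were 1.09 ± 0.43 in KD against CON (SE; limma, adjusted p = 0.143) and -1.30 ± 0.43 in RE against KD (SE; limma, adjusted p = 0.127), and neither passed. KD against CON passed under median-of-ratios scaling (1.07, adjusted p = 0.0422), under quantile normalization (1.11, adjusted p = 0.0219), under the length correction (1.07, adjusted p = 0.0292) and without RE 1, RE 3 and CON 4 (0.79, adjusted p = 0.0288). It also passed with the replicate number as a block added to the length correction (1.07, limma, adjusted p = 0.0479). RE against KD passed without CON 4 (adjusted p = 0.0389), which leaves its value as it was and changes the shared estimate of spread.

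Hspa8, the constitutive HSP70 that folds proteins in every cell and strips clathrin from vesicles, had 554, 533, 279 and 725 TPM in RE, 498, 462, 476 and 557 TPM in KD, and 493, 432, 449 and 365 TPM in CON. RE 3 was the lowest library and RE 4 the highest, and all 3 groups overlapped. Its difference was 0.20 ± 0.23 in KD against CON (SE; 95% interval -0.31 to 0.71; limma, adjusted p = 0.702). It was -0.01 ± 0.23 in RE against KD (SE), 0.32 under median-of-ratios scaling, and 0.19 ± 0.23 in RE against CON (SE; adjusted p = 0.552). The RE against CON value was 0.47 without RE 3 (adjusted p = 0.115) and 0.01 without RE 4, and without RE 1, RE 3 and CON 4 it was 0.44 and passed (adjusted p = 0.0411).

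A ratio within a library does not depend on how that library was scaled. The sum of Hspa1a and Hspa1b was 11.9%, 14.2%, 14.5% and 12.9% of Hspa8 in RE, 37.1%, 28.6%, 19.7% and 21.5% in KD, and 15.3%, 14.2%, 15.7% and 16.2% in CON. Each KD library lay above all RE and CON libraries, and the spread within RE and within CON was small beside that within KD, where KD 1 was highest. The ratio was 1.69-fold higher in KD than in CON (0.76 on the log2 scale) and 0.515-fold in RE against KD (-0.96). Both differences had p = 0.0286 in a two-sided exact permutation test, the smallest value that 4 against 4 libraries allow. Their adjusted p over the 6 ratio tests was 0.0857. With groups of this size the HSP70 tests could not pass 0.05 after adjustment unless the HSP90 ratio also separated groups fully. The adjusted p therefore cannot decide whether the HSP70 ratio differed. RE against CON differed by -0.20 (exact permutation test, p = 0.0857, adjusted p = 0.171). With Hspa1b alone as numerator the differences were 0.73 in KD against CON, -0.90 in RE against KD and -0.17 in RE against CON. For the summed numerator without RE 1, RE 3 and CON 4 they were 0.78, -0.93 and -0.15.

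**Figure D2:**
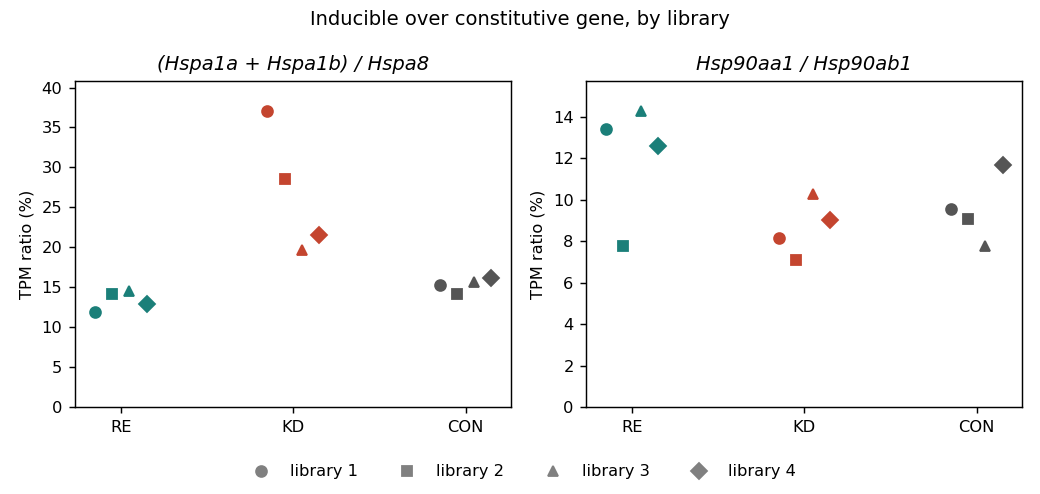
Inducible over constitutive gene within each library, in percent of TPM, for HSP70 on the left and HSP90 on the right, with RE, KD and CON from left to right and marker shapes for the library number. The HSP70 ratio lies between 19.7% and 37.1% in KD and between 11.9% and 16.2% in the other 8 libraries, and the HSP90 ratio overlaps between all groups.

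Dnajb1, the J-domain protein that loads clients onto HSP70 and is itself induced by heat, had 35.4, 32.9, 23.3 and 40.2 TPM in RE, 28.9, 25.2, 32.0 and 27.7 TPM in KD, and 33.6, 33.5, 32.2 and 28.0 TPM in CON. The groups overlapped, and the highest and lowest libraries were both RE. Its estimate in KD against CON was -0.16 ± 0.18 (SE; 95% interval -0.54 to 0.22; limma, adjusted p = 0.682). The estimates were 0.18 ± 0.18 in RE against KD and 0.03 ± 0.18 in RE against CON (SE).

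Both HSP90 genes had estimates below 0 in KD against CON, and neither passed the test. Hsp90aa1, which is induced by heat on top of a basal level, had 326, 206, 244 and 346 TPM in RE, 176, 161, 225 and 210 TPM in KD, and 308, 276, 245 and 220 TPM in CON. KD held the 2 lowest libraries, and only KD 3 reached into the CON range. The difference was -0.44 ± 0.19 in KD against CON (SE; 95% interval -0.85 to -0.04; limma, adjusted p = 0.167) and 0.52 ± 0.19 in RE against KD (SE; 95% interval 0.11 to 0.92; limma, adjusted p = 0.137). Without RE 1, RE 3 and CON 4 the first was -0.52 and passed (adjusted p = 0.0457), and the second was 0.48 and did not (adjusted p = 0.240).

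Hsp90ab1, the constitutive HSP90 that stabilises kinases and steroid receptors, had 2428, 2640, 1709 and 2737 TPM in RE, 2156, 2262, 2189 and 2333 TPM in KD, and 3214, 3048, 3152 and 1873 TPM in CON. Of the CON libraries, 3 were above every RE and KD library, and CON 4 was below every KD library. In KD against CON the difference was -0.30 ± 0.19 (SE; limma, adjusted p = 0.396); without CON 4 it was -0.49 ± 0.15 and passed (SE; adjusted p = 0.0396), and RE against CON was then -0.42 (adjusted p = 0.0340), against -0.24 ± 0.19 with all libraries (SE; adjusted p = 0.379) and 0.07 under median-of-ratios scaling. Without RE 1, RE 3 and CON 4, KD against CON was -0.49 and passed (adjusted p = 0.00144), while RE against CON was -0.22 and did not (adjusted p = 0.0950). RE against KD was 0.07 ± 0.19 (SE; adjusted p = 0.817).

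Hsp90aa1 was 13.4%, 7.79%, 14.3% and 12.6% of Hsp90ab1 in RE, 8.17%, 7.11%, 10.3% and 9.01% in KD, and 9.58%, 9.07%, 7.78% and 11.7% in CON. All 3 groups overlapped. The log2 ratio differed by -0.14 in KD against CON (exact permutation test, p = 0.429, adjusted p = 0.429), by 0.45 in RE against KD (exact permutation test, p = 0.114, adjusted p = 0.171) and by 0.31 in RE against CON (exact permutation test, p = 0.257, adjusted p = 0.309). Neither HSP90 gene nor their ratio thus gave a difference past the threshold with all libraries.

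**Figure D3:**
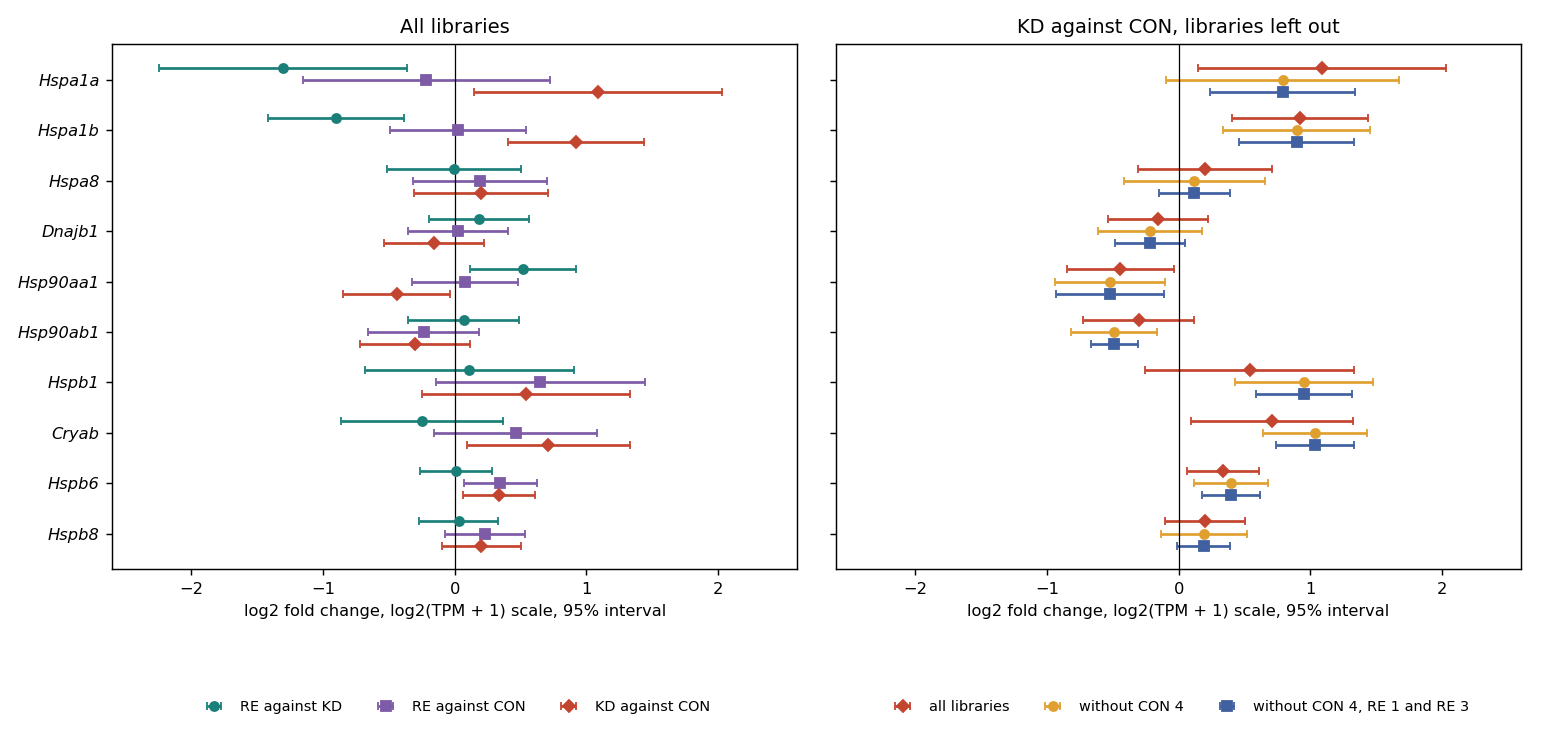
Log2 fold change of each gene with its 95% interval on the log2(TPM + 1) scale, for all 3 comparisons with all libraries on the left, and for KD against CON with libraries left out on the right. Hspa1a and Hspa1b lie on opposite sides of 0 in RE against KD and KD against CON; Hspb1 and Cryab move to 0.95 and 1.04 in KD against CON once CON 4 is left out.

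For Cryab, Hspb1 and Hspb6, among the small heat shock proteins, calls against CON turned on whether CON 4 was included. Cryab encodes alphaB-crystallin, the partner of desmin in muscle and a lens protein. It had 475, 479, 645 and 350 TPM in RE, 552, 551, 575 and 584 TPM in KD, and 247, 254, 332 and 682 TPM in CON. CON 4 was the highest of all 12 libraries, and the other 3 CON libraries were lower than every RE and KD library. The KD libraries were close together, with an SD of 16.5 TPM, against 121 TPM in RE and 206 TPM in CON. In KD against CON the difference was 0.71 ± 0.28 (SE; 95% interval 0.09 to 1.33; limma, adjusted p = 0.145); without CON 4 it was 1.04 ± 0.18 (SE; adjusted p = 0.00226). RE against CON was 0.46 ± 0.28 (SE; adjusted p = 0.262), 0.79 ± 0.18 without CON 4 (SE; adjusted p = 0.00535) and 0.57 without RE 1, RE 3 and CON 4 (adjusted p = 0.0261). RE against KD was -0.25 ± 0.28 (SE; adjusted p = 0.534), and 0.08 under median-of-ratios scaling.

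Hspb1 encodes HSP27 (HSP25 in mouse), which caps and protects actin filaments. It had 149, 151, 247 and 104 TPM in RE, 148, 123, 169 and 138 TPM in KD, and 74.5, 62.4, 86.2 and 233 TPM in CON. CON 4 and RE 3 were the 2 highest libraries, and CON 1, CON 2 and CON 3 were the 3 lowest. KD against CON was 0.54 ± 0.36 (SE; 95% interval -0.25 to 1.33; limma, adjusted p = 0.432), and 0.95 ± 0.24 without CON 4 (SE; adjusted p = 0.0171). RE against CON was 0.65 ± 0.36 (SE; adjusted p = 0.232), 1.06 ± 0.24 without CON 4 (SE; adjusted p = 0.00505) and 0.76 without RE 1, RE 3 and CON 4 (adjusted p = 0.0204). RE against KD gave 0.11 ± 0.36 (SE; adjusted p = 0.842).

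The library-by-library deviations show how the same libraries stood out. CON 4 deviated from the gene mean by 0.84 for Hspb1, 0.59 for Cryab, -1.18 for Hspa1a and -0.82 for long transcripts (log2). RE 3 deviated by 0.92 for Hspb1, 0.51 for Cryab, -1.66 for Hspa1a, -0.92 for Hspa1b, -0.76 for Hspa8 and -0.99 for long transcripts. RE 1, which was also low in long transcripts, deviated by 0.19 for Hspb1 and 0.07 for Cryab. The part of transcript length in these values was not tested beyond the length correction, under which Cryab rose in KD against CON (0.73, limma, adjusted p = 0.0293) and Hspb1 did not pass. With the replicate number as a block added to that correction, Cryab did not pass either (0.73, limma, adjusted p = 0.0669).

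**Figure D4:**
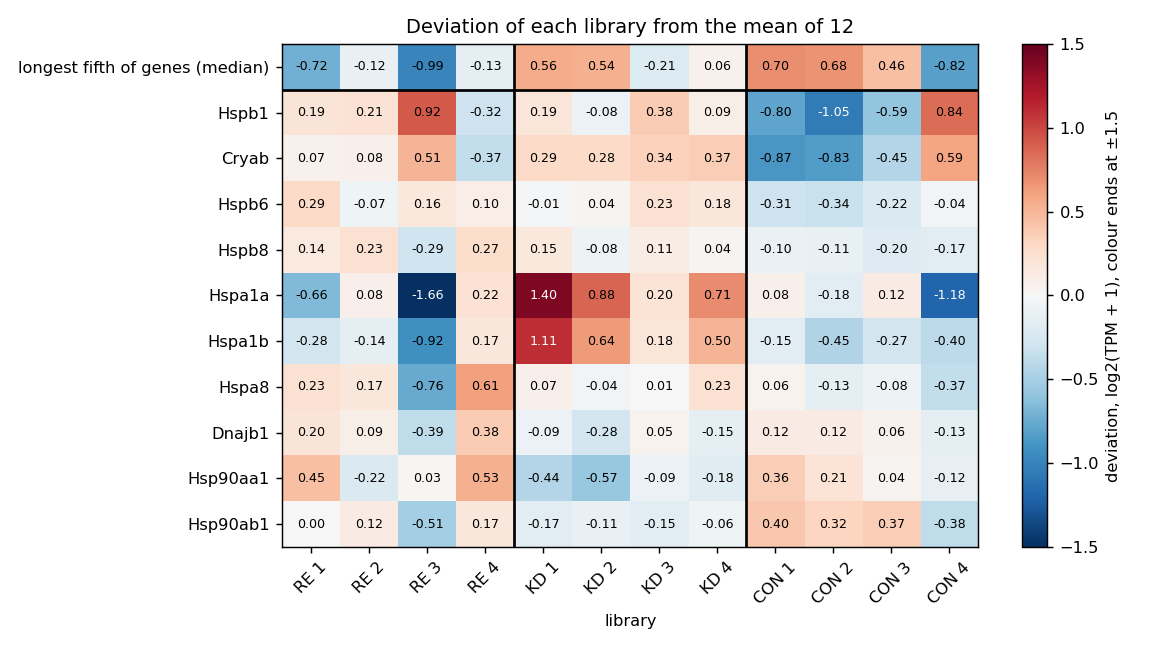
Deviation of each library from the mean of 12, on the log2(TPM + 1) scale, for the 10 genes and, in the top row, the median deviation of the genes with the longest transcripts; columns run RE 1 to RE 4, KD 1 to KD 4 and CON 1 to CON 4, and the colour ends at ±1.5. CON 4 and RE 3, the lowest in the top row at -0.82 and -0.99, are the highest in Hspb1 and Cryab and the lowest in Hspa1a.

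Hspb6 encodes HSP20, a small heat shock protein abundant in muscle. It had 104, 80.9, 94.9 and 90.9 TPM in RE, 84.0, 87.3, 99.8 and 96.0 TPM in KD, and 68.1, 66.9, 73.0 and 82.5 TPM in CON. Every KD library was above every CON library, with KD 1 (84.0 TPM) and CON 4 (82.5 TPM) the closest pair, and RE 2 lay inside the CON range. The difference was 0.34 ± 0.13 in KD against CON (SE; 95% interval 0.06 to 0.61; limma, adjusted p = 0.123) and 0.35 ± 0.13 in RE against CON (SE; 95% interval 0.07 to 0.62; adjusted p = 0.124). Without CON 4 these were 0.40 (adjusted p = 0.0456) and 0.41 (adjusted p = 0.0195), and both passed. Without RE 1, RE 3 and CON 4, KD against CON was 0.40 and passed (adjusted p = 0.0108), while RE against CON was 0.30 and did not (adjusted p = 0.0704). RE against KD was 0.01 ± 0.13 (SE; 95% interval -0.26 to 0.29).

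Hspb8 encodes HSP22, which works with the co-chaperone BAG3 in sorting damaged proteins for autophagy. It had 96.2, 102, 70.7 and 105 TPM in RE, 96.9, 82.3, 94.1 and 89.5 TPM in KD, and 81.2, 80.6, 75.6 and 77.4 TPM in CON. All KD libraries were above all CON libraries, and RE 3 was the lowest of the 12. KD against CON was 0.20 ± 0.14 (SE; 95% interval -0.10 to 0.50; limma, adjusted p = 0.447), and RE against CON 0.23 ± 0.14 (SE; adjusted p = 0.256). The RE against CON value was 0.36 without RE 3 (adjusted p = 0.111), and 0.38 without RE 1, RE 3 and CON 4, where it passed (adjusted p = 0.0266). RE against KD was 0.03 ± 0.14 (SE; 95% interval -0.27 to 0.33). Bag3 averaged 70.6 ± 11.4 TPM in RE, 68.8 ± 6.5 TPM in KD and 59.5 ± 3.5 TPM in CON (SD, n = 4 each), and did not pass in KD against CON (0.20, limma, adjusted p = 0.443).

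Read over the 10 genes, KD against CON gave 1 rise, 0 falls and 5 unadjusted p-values under 0.05, a cut that 23.8% of all tested genes passed. KD and CON did not overlap, with KD higher, for Hspa1a, Hspa1b, Hspb6 and Hspb8, that is 4 of 10 against 11.9% of all tested genes, a difference in shares that was not tested. Because Hspa1a and Hspa1b share much of their sequence, such counts may hold the same signal more than once. None of the 10 was lower without overlap, against 7.02% of all tested genes. The median difference of the 10 genes was 0.27, against -0.01 for all tested genes. In RE against KD limma called 0 of the 10, with 3 unadjusted p-values under 0.05 (Hspa1a, Hspa1b and Hsp90aa1) against 28.0% of all genes, and the median was 0.02, against -0.29 for all genes. In RE against CON it called 0 of the 10, where 6.33% of all genes changed, with 1 unadjusted p under 0.05 (Hspb6) against 28.4% of all genes. All 10 overlapped between RE and CON, where 9.22% of genes did not, and the median was 0.14, against -0.28 for all genes. Groups share libraries between these comparisons, so the 3 sets of values are not independent. Median-of-ratios scaling moved the median of all genes to 0.00 in RE against KD and 0.01 in RE against CON, where it was -0.29 and -0.28 as deposited. Relative to the deposited median, the 10 genes lay between -1.01 (Hspa1a) and 0.81 (Hsp90aa1) in RE against KD. That scaling also moved the split of all changed genes in RE against KD to 32 higher and 46 lower, against 22 higher and 101 lower as deposited, and in RE against CON to 595 higher and 500 lower, against 318 higher and 427 lower.

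Without CON 4 alone, 5 of the 10 genes changed in KD against CON (Hspa1b, Hspb1, Hspb6 and Cryab higher, Hsp90ab1 lower), where 20.5% of all genes changed. Hspa1a and Hspa1b then fell in RE against KD, where 23.7% of all genes changed. Hspb1, Hspb6 and Cryab rose and Hsp90ab1 fell in RE against CON, where 52.8% of all genes changed. Without RE 1, RE 3 and CON 4, 7 of the 10 changed in KD against CON, where 39.4% of all genes did. That set added Hspa1a and Hsp90aa1 to the 5 above. RE against KD then had 0 of the 10, where 0.425% of all genes changed, and RE against CON had 4 (Hspa8, Hspb1, Hspb8 and Cryab, all higher), where 32.1% of all genes changed.

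The wider chaperone network, with heat shock factor genes and immediate early genes beside it, was read from 9 lists with 95 genes, of which 84 were tested. In RE against KD limma called 0 genes in each of the 9 lists. In KD against CON the HSP70-like and HSP110 list had 1 of 8 higher and 0 lower, with a median of -0.06. Its changed gene was Hspa2, an HSP70 best known from the testis, which had 8.67, 16.1, 9.56 and 10.5 TPM in RE, 19.5, 17.9, 15.7 and 19.5 TPM in KD, and 8.16, 8.68, 7.94 and 7.55 TPM in CON. Hspa2 rose in KD against CON by 1.07 ± 0.19 (SE; limma, adjusted p = 0.00381), and the call held with each library left out in turn. Hsph1, the HSP110 that exchanges the nucleotide of HSP70, averaged 122 ± 30 TPM in RE, 237 ± 86 TPM in KD and 119 ± 36 TPM in CON (SD, n = 4 each) and did not pass (0.97 ± 0.32 SE, limma, adjusted p = 0.0735).

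Of the 2 tested genes among 5 other small heat shock proteins, 1 rose and 0 fell in KD against CON. Hspb7, a muscle small heat shock protein that binds filamin C, had 16.3, 37.1, 23.5 and 17.5 TPM in RE, 27.9, 34.1, 28.7 and 26.8 TPM in KD, and 9.61, 6.93, 12.5 and 16.2 TPM in CON. All KD libraries lay above all CON libraries, and Hspb7 rose by 1.36 ± 0.28 (SE; limma, adjusted p = 0.00876), a call that held with each library left out. Hspb2, which overlaps Cryab, had 127, 172, 308 and 93.8 TPM in RE, 163, 173, 180 and 167 TPM in KD, and 52.0, 53.9, 76.4 and 209 TPM in CON. RE 3 and CON 4 were the highest libraries, as for Hspb1, and the difference was 1.05 ± 0.42 (SE; limma, adjusted p = 0.151).

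In KD against CON, where 10.2% of all tested genes changed, J-domain proteins had 1 of 15 higher and 0 lower (median -0.09), HSP90 co-chaperones 0 higher and 1 of 19 lower (median -0.24), nucleotide exchange factors 0 of 7 in either direction (median -0.16) and subunits of the TRiC chaperonin, which folds actin and tubulin, 0 of 8 (median -0.36). Ahsa1, the activator of the HSP90 ATPase, averaged 398 ± 94 TPM in RE, 313 ± 33 TPM in KD and 532 ± 71 TPM in CON (SD, n = 4 each). It fell in KD against CON by 0.76 on the log2 scale (SE 0.18; limma, adjusted p = 0.0157), and the call was lost without KD 1, KD 2, CON 1 or CON 3 (adjusted p up to 0.0572) and with the replicate number as a block (adjusted p = 0.052). Dnajb6, which suppresses aggregation and whose human gene is mutated in a limb-girdle muscular dystrophy, averaged 182 ± 41 TPM in RE, 176 ± 13 TPM in KD and 109 ± 34 TPM in CON (SD, n = 4 each). It rose in KD against CON (0.74 ± 0.20 SE, limma, adjusted p = 0.0364) and in RE against CON (0.76 ± 0.20 SE, limma, adjusted p = 0.0426). The first call was lost without any 1 KD library and without CON 1, CON 2 or CON 3 (adjusted p up to 0.113), and also under median-of-ratios scaling (adjusted p = 0.206), the length correction (0.106), the replicate block (0.0524) and the block with the length correction (0.119). The second was lost with each library left out except CON 4 (adjusted p up to 0.147), and under 5 of the other settings (adjusted p from 0.0538 to 0.142).

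None of the 4 tested genes for heat shock factors and their binding protein (Hsf1, Hsf2, Hsf4 and Hsbp1) changed in any comparison (limma). Hsf1 had 65.2, 64.1, 42.7 and 64.3 TPM in RE, 61.6, 58.2, 49.5 and 61.3 TPM in KD, and 74.6, 71.5, 81.3 and 48.2 TPM in CON. The 3 groups overlapped, and RE 3 and CON 4 were the 2 lowest. The difference was -0.23 ± 0.19 in KD against CON (SE; limma, adjusted p = 0.541). Transcript levels do not show whether the factor was active.

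Heat shock proteins of other compartments are given for comparison. In the endoplasmic reticulum, Hspa5 (BiP) averaged 3283 ± 981 TPM in RE, 5072 ± 1348 TPM in KD and 1474 ± 182 TPM in CON (SD, n = 4 each), and Hsp90b1 (GRP94) 3575 ± 1008 TPM in RE, 5765 ± 1612 TPM in KD and 2028 ± 69 TPM in CON. Hspa5 (1.75, adjusted p = 0.00048), Hsp90b1 (1.46, adjusted p = 0.0017) and Hyou1 (1.60, adjusted p = 0.00548) rose in KD against CON in limma and held with each library left out. Hspe1, the mitochondrial partner of HSP60, averaged 83.6 ± 16.1 TPM in RE, 48.7 ± 8.0 TPM in KD and 78.0 ± 8.0 TPM in CON (SD, n = 4 each). It fell in KD against CON by 0.68 on the log2 scale (limma, adjusted p = 0.0271), and the call was lost without KD 1, KD 2, CON 1, CON 2 or CON 3 (adjusted p up to 0.0995), under median-of-ratios scaling (adjusted p = 0.142) and under quantile normalization (adjusted p = 0.0651). The list of mitochondrial and endoplasmic reticulum proteins thus had 3 of 8 higher and 1 lower in KD against CON (median -0.02), and in RE against CON only Hspa5 rose (1.11, adjusted p = 0.0124), a call lost under quantile normalization (0.82, adjusted p = 0.0516).

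The immediate early genes, which respond to handling and to many stresses, had 2 of 13 higher and 1 lower in KD against CON (median -0.01). Dusp1, a phosphatase of the stress kinases, averaged 118 ± 36 TPM in RE, 194 ± 31 TPM in KD and 71.6 ± 18.3 TPM in CON (SD, n = 4 each) and rose in KD against CON by 1.44 ± 0.23 (SE; limma, adjusted p = 0.00182). Fosb rose by 0.70 (limma, adjusted p = 0.0328), a call lost without KD 1, KD 2, KD 4, CON 1, CON 2 or CON 3 (adjusted p up to 0.110). It was also lost under 5 other settings: median-of-ratios scaling (adjusted p = 0.0664), quantile normalization (0.127), the replicate block (0.0981), the length correction (0.0831) and the block with that correction (0.146). Atf3, a stress-induced transcription factor, averaged 3.49 ± 1.41 TPM in RE, 8.97 ± 1.89 TPM in KD and 29.99 ± 13.07 TPM in CON (SD, n = 4 each). It fell by 1.52 on the log2 scale in KD against CON (limma, adjusted p = 0.0148; lost without CON 1 or CON 2, adjusted p up to 0.0526) and by 2.70 in RE against CON (limma, adjusted p = 0.000436), where Egr2 fell too, by 1.48 (limma, adjusted p = 0.0113).

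**Figure D5:**
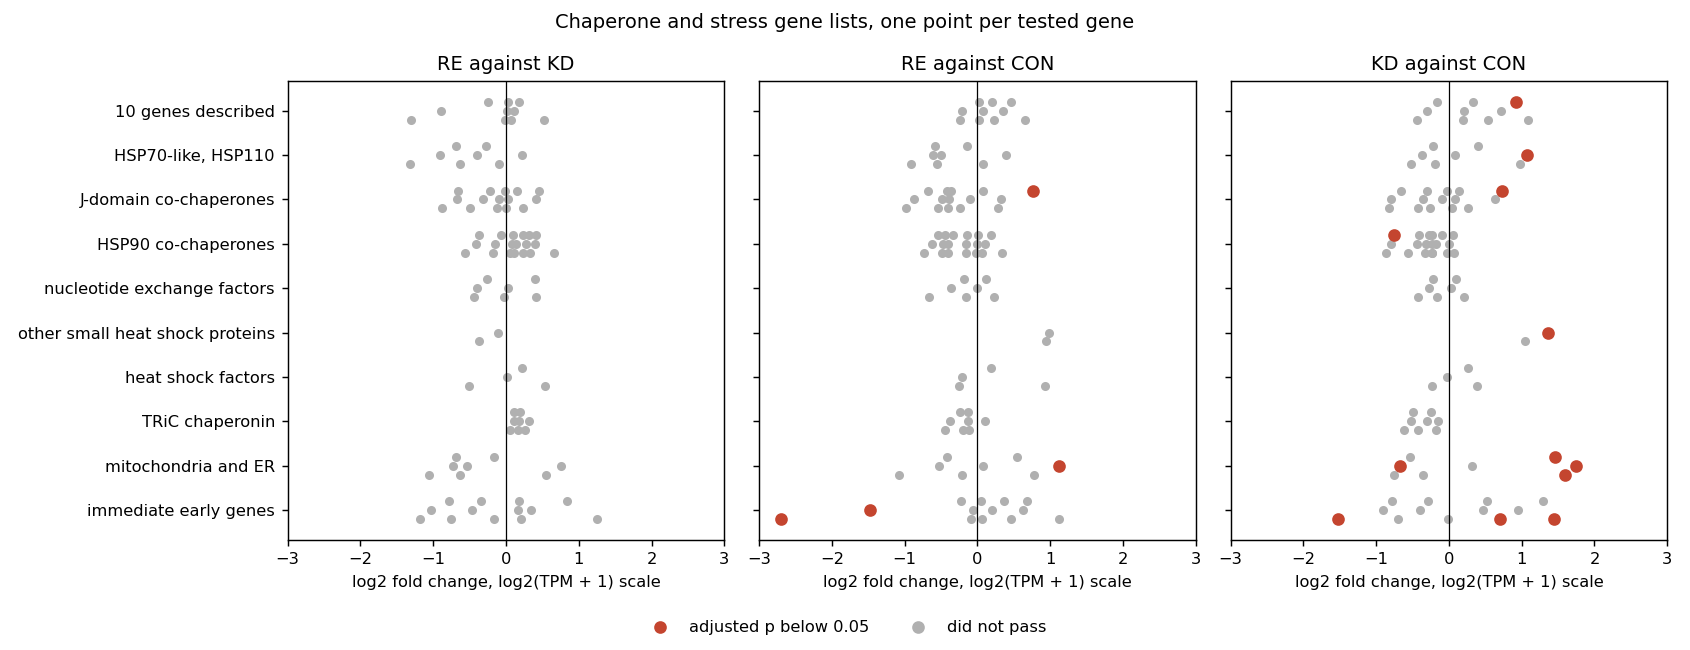
Log2 fold change of every tested gene of the 10 described and of the 9 lists, on the log2(TPM + 1) scale, in RE against KD, RE against CON and KD against CON; large red points passed an adjusted p of 0.05 in limma. In RE against KD no point is red, and in KD against CON 1 of the 10 genes is, Hspa1b.

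The genes whose profile lay nearest to that of Hspa1b over the 12 libraries were Plekhg5, with a root mean square difference of 0.19 in log2 deviation, and Entpd7, likewise 0.19, where Hspa1b itself had an SD of 0.53. Plekhg5 had 15.03, 16.98, 12.5 and 18.9 TPM in RE, 35.4, 31.4, 26.4 and 27.6 TPM in KD, and 16.8, 15.5, 19.9 and 13.2 TPM in CON. Like Hspa1b, Plekhg5 was higher in each KD library than in every RE and CON library. Entpd7 was not, since KD 3 (5.68 TPM) lay below RE 2 (6.17 TPM) and RE 4 (6.52 TPM). The likeness of these genes to Hspa1b is a description of the same 12 libraries.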

How the data were processed

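TPM values for 23184 gene symbols in 12 libraries were used as the authors deposited them. Trim Galore 0.6.6, TopHat2 2.1.1, Cufflinks 2.2.1 and the mm10 build are named in the submitters' processing notes; how TPM was made, whether strand was used and how shared reads were split are not given in the sources used here. All columns have the same sum, so depth is unknown and no counting interval is given. The 4 control columns are headed WT and were assigned to CON as a group, because the labels give CON that genotype. The numbers of the CON libraries, also in the replicate block, are those of the column headers. They were not matched to single CON samples.

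The 11774 genes that averaged 1 TPM or more entered the test on log2(TPM + 1), a scale that understates the change of low genes. The test was limma 3.58.1 in R 4.3.3 (group means, all 12 libraries in 1 fit, trended moderation, two-sided, Benjamini-Hochberg over all tested genes for each comparison). The threshold for a change was an adjusted p of 0.05. The 2 ratios were tested with exact two-sided permutation tests, adjusted over 6 tests. The fit was checked on simulated data.

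Gene positions and transcripts came from GENCODE M21 (GRCm38, the same assembly as mm10) and promoters from RefSeq. The length correction subtracts from each library a loess trend (span 0.5) on transcript length, known for 96.3% of tested genes. The 10 genes, the 9 lists, the markers and the alternatives were chosen with earlier results of these data known. Named genes are all 10, the changed genes of each list, a few fixed for their role, and the 2 nearest profiles of a changed gene. The alternatives tried were the length correction, libraries left out, median-of-ratios scaling, a pseudocount of 0.1, the replicate number as a block, quantile normalization, a TPM minimum of 5 or none, and only the compared groups.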

Additional observations from a re-analysis of the deposited data

Results flagged for a closer look

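Among 36 groups of 4 libraries checked for a lone extreme library, with the 10 genes in 3 groups each among them, 2 held one. Chance gives about 1 in 20 groups. Hsp90ab1 in CON 4 was 1870 TPM, below the other 3 CON libraries at 3048 to 3214 TPM, with a gap of 0.876 of the range. Hspb1 in CON 4 was 233 TPM, above the other 3 CON libraries at 62.4 to 86.2 TPM, with a gap of 0.861 of the range. Both gaps pass the 95% critical value of the Dixon test for 4 libraries. Hspb2 in CON 4, at 209 TPM against 52.0 to 76.4 TPM in the other CON libraries, is not in this count. CON 4 also had the lowest median of long transcripts among the CON libraries, at -0.82, and its part in these values was not tested.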

How the results depend on the processing

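Leaving out 1 library in turn gave 0 to 5 of the 10 genes changed in KD against CON, 0 to 2 in RE against KD and 0 to 4 in RE against CON, and 744 to 2412, 13 to 2791 and 417 to 6219 of all genes, with each highest count reached without CON 4. The inducible HSP70 to Hspa8 ratio then differed by 0.58 to 0.89 in KD against CON, -1.09 to -0.78 in RE against KD and -0.24 to -0.15 in RE against CON, and the Hsp90aa1 to Hsp90ab1 ratio by -0.23 to -0.04, 0.36 to 0.65 and 0.22 to 0.51. In KD against CON the number of the 10 genes changed was 2 under median-of-ratios scaling, 2 under quantile normalization, 3 under the length correction, 2 under that correction with the block and 7 without RE 1, RE 3 and CON 4, where RE against CON had 4. All genes changed in KD against CON numbered 1904 under quantile normalization, 2434 under the length correction and 4636 without the 3 libraries. In RE against KD they numbered 78 under median-of-ratios scaling, 49 with only the compared groups, 50 without the 3 libraries and 239 under the length correction. In RE against CON they numbered 452 at 5 TPM, 1178 under quantile normalization, 409 with only the compared groups, 3781 without the 3 libraries and 1465 under the length correction. The cause of these moves was not tested.

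Libraries with the same number did not deviate together (correlations from -0.71 to 0.65 over 12 pairs), so the number was not taken as a pairing. With the replicate block 824 genes changed in KD against CON, 19 in RE against KD and 518 in RE against CON, and of the 10 genes 1, 0 and 0; with the block and the length correction 24 changed in RE against KD. Sign flips over same-numbered libraries gave an exact permutation p of 0.125 for both ratios in RE against KD, the smallest that 4 pairs allow.

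Among the single-gene values of the 10 genes, 268 of 300 under the settings other than leaving out 1 library kept their direction and side of the threshold, as did 322 of 360 with 1 library left out. Signs turned for 17 and 22 of them, none past the threshold. Under median-of-ratios scaling Hspa8 (0.321) and Cryab (0.080) turned in RE against KD, and Hspa1a (0.043) and Hsp90ab1 (0.074) in RE against CON. Under quantile normalization Hsp90ab1 (-0.036) turned in RE against KD and Hspa1a (0.204) in RE against CON. Without RE 1, RE 3 and CON 4, Hspa8 (0.322), Hspb1 (-0.195) and Hspb6 (-0.093) turned in RE against KD, and Hspa1a (0.142) and Hsp90aa1 (-0.046) in RE against CON. Under the length correction, with or without the block, Hspa8 (0.263) and Hspb1 (-0.150) turned in RE against KD and Hspa1a (0.008) in RE against CON. With 1 library left out, values that changed sign ranged in RE against KD over -0.191 to 0.267 for Hspa8, -0.008 to 0.218 for Hsp90ab1, -0.113 to 0.300 for Hspb1, -0.045 to 0.073 for Hspb6 and -0.031 to 0.156 for Hspb8. In RE against CON they ranged over -0.514 to 0.170 for Hspa1a, -0.130 to 0.234 for Hspa1b, -0.035 to 0.213 for Hsp90aa1 and -0.076 to 0.179 for Dnajb1.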
